A study of Mus musculus with 6 samples.

Results

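The genes described are 10 direct targets of the transcription factor p53 that act in cell-cycle arrest, cell death and the feedback on p53 itself: Cdkn1a, Mdm2, Ccng1, Pmaip1, Bbc3, Fas, Perp, Trp53inp1, Sesn1 and Zmat3. They were found by symbol in the deposited table of 24421 genes, and all 10 passed the filter on low values that left 11559 genes to test. Messenger RNA came from primary mouse proximal tubular epithelial cells, which line the first stretch of the kidney tubule. One group of 3 libraries was labelled Atg5KO and the other group of 3 was labelled Atg5F/F, the floxed allele without a stated deletion. All 6 had received 20 µM erastin2 for 24 h and carried the same batch date. Erastin2, a relative of the compound erastin, stops cells from importing cystine and can push them into ferroptosis, a death by lipid peroxidation. ATG5 is needed to attach LC3 to the growing autophagosome. No untreated group was analysed here, so each difference is one between genotype labels under the drug. The labels give neither the Cre that made the deletion nor the animal or culture behind a library. Every p-value below compares 3 libraries with 3, and part or all of the spread between libraries may be technical. In limma the spread of each gene was also drawn towards that of genes at a similar level. Its p-values, SEs and intervals therefore do not rest on the gene's own libraries alone.

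p53 is held low by MDM2, a ubiquitin ligase that p53 itself switches on, and it accumulates when cells are stressed. It then binds a consensus site made of a pair of decamers and raises genes that stop the cell cycle, repair DNA, restrain growth or start apoptosis. In the kidney the proximal tubule is the segment where p53 is best known, from acute injury by ischaemia or cisplatin. Outside apoptosis, p53 is also known to affect cystine uptake, the step that erastin2 blocks.

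The libraries held 15528454 to 30004933 reads each, recovered from the steps in the deposited FPKM values (fragments per kilobase of gene, scaled to the total reads of the library). Atg5 was not lower in the KO-labelled libraries: it stood at 13.3, 11.5 and 12.7 FPKM there, against 8.76, 8.95 and 7.94 FPKM in F/F-labelled ones. A whole-gene value cannot show a missing exon, so the labels could not be checked from it, and every direction below rests on them. Of 18 markers of the proximal tubule, 9 stayed under 1 FPKM in all 6 libraries, among them Cubn, Slc34a1 and Slc22a6. The summed level of the 18 markers ran from 129.8 to 142.1 FPKM in KO-labelled and from 235.0 to 259.3 FPKM in F/F-labelled libraries. The largest part of that gap lay in Ggt1 (54.4 ± 3.5 FPKM in KO-labelled and 126.5 ± 10 FPKM in F/F-labelled libraries, SD, n = 3 each). Of 7 markers tested by limma, 6 were lower (85.7%, against 17.9% of all genes tested). The remaining 1 was higher (14.3%, against 21.3%): Aqp1, named after its value was seen, at 0.35 on the log2 scale. Many markers of other cells were low: 10 of 11 for the distal tubule and collecting duct, 9 of 11 for fibroblasts and pericytes, 6 of 7 for endothelium, 5 of 8 for leukocytes and 2 of 5 for podocytes stayed under 1 FPKM throughout. The leukocyte sum was 14.9 to 16.7 FPKM in KO-labelled and 15.7 to 18.6 FPKM in F/F-labelled libraries. The endothelial sum was 5.74 to 7.30 FPKM in KO-labelled and 9.36 to 10.8 FPKM in F/F-labelled libraries. Most of the endothelial sum was Kdr (5.53 ± 0.91 FPKM in KO-labelled and 9.06 ± 0.61 FPKM in F/F-labelled libraries, SD, n = 3 each). The podocyte sum was 27.6 to 31.1 FPKM in KO-labelled and 27.2 to 31.3 FPKM in F/F-labelled libraries, most of it Synpo. The fibroblast and pericyte sum was 7.25 to 9.88 FPKM in KO-labelled against 2.59 to 3.48 FPKM in F/F-labelled libraries. That difference lay almost wholly in Postn (8.01 ± 1.6 FPKM in KO-labelled and 0.760 ± 0.21 FPKM in F/F-labelled libraries, SD, n = 3 each). The other marker tested, Cspg4, was lower, at 0.464 ± 0.076 FPKM in KO-labelled and 1.90 ± 0.47 FPKM in F/F-labelled libraries, and the collagen genes Col1a1 and Col1a2 stayed under 1 FPKM. The part of these cells in the results below was not tested.

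For 6 of the 10 genes, RefSeq promoter windows on GRCm38.p6 were at hand, 10 windows in all, each running from 250 bases before a transcript start to 50 after it. The p53 consensus site, searched as 20 adjoining bases with its C and G core positions intact and at most 1 other mismatch, was present in 2 of those windows. It reads the same on both strands, and 0.067% of 32841 windows of all genes held it. The matches belong to Ccng1 and Cdkn1a and are shown as the windows of the set that hold the site. The capitals mark the matched 20 bases. The Ccng1 stretch is chr11:40755422-40755521 on the minus strand, and the Cdkn1a stretch is chr17:29090888-29090978 on the plus strand.
Ccng1: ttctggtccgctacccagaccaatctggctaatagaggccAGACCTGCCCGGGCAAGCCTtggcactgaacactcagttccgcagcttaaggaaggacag
Cdkn1a: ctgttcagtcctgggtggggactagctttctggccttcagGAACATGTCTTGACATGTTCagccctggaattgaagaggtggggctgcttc
The Cdkn1a match lies just before the upstream of its 2 annotated starts and begins 2841 bases before the downstream one. A match is a description of letters and was not tested as a binding site.

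Under erastin2, 9 of the 10 targets rose in KO-labelled libraries and Cdkn1a alone stood lower, without passing the test. Among all genes tested, 39.2% were called, 21.3% higher and 17.9% lower (limma on log2(FPKM + 1), Benjamini-Hochberg adjusted p under 0.05). The authors' deposited table has 9 of the 10 higher and 1 lower at an FDR under 0.05, where 19.2% of the same genes are higher and 22% lower. In bulk RNA, fewer cells with a transcript and less of it per cell cannot be told apart. The 10 log2 fold changes had a median of 0.45, against 0.018 over all genes tested, and ran from -0.14 to 0.78. The 3 largest increases were those of the death genes Perp, Pmaip1 and Fas. In all 9 genes that rose, every KO-labelled value lay above every F/F-labelled value, a pattern found upward in 28.7% and downward in 23.2% of the genes tested. An exact permutation test of 3 against 3 libraries cannot go below a two-sided p of 0.1, and each of the 10 genes reached that value. The members were chosen with earlier results of these data known, so these counts are a description.

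**Figure D1:**
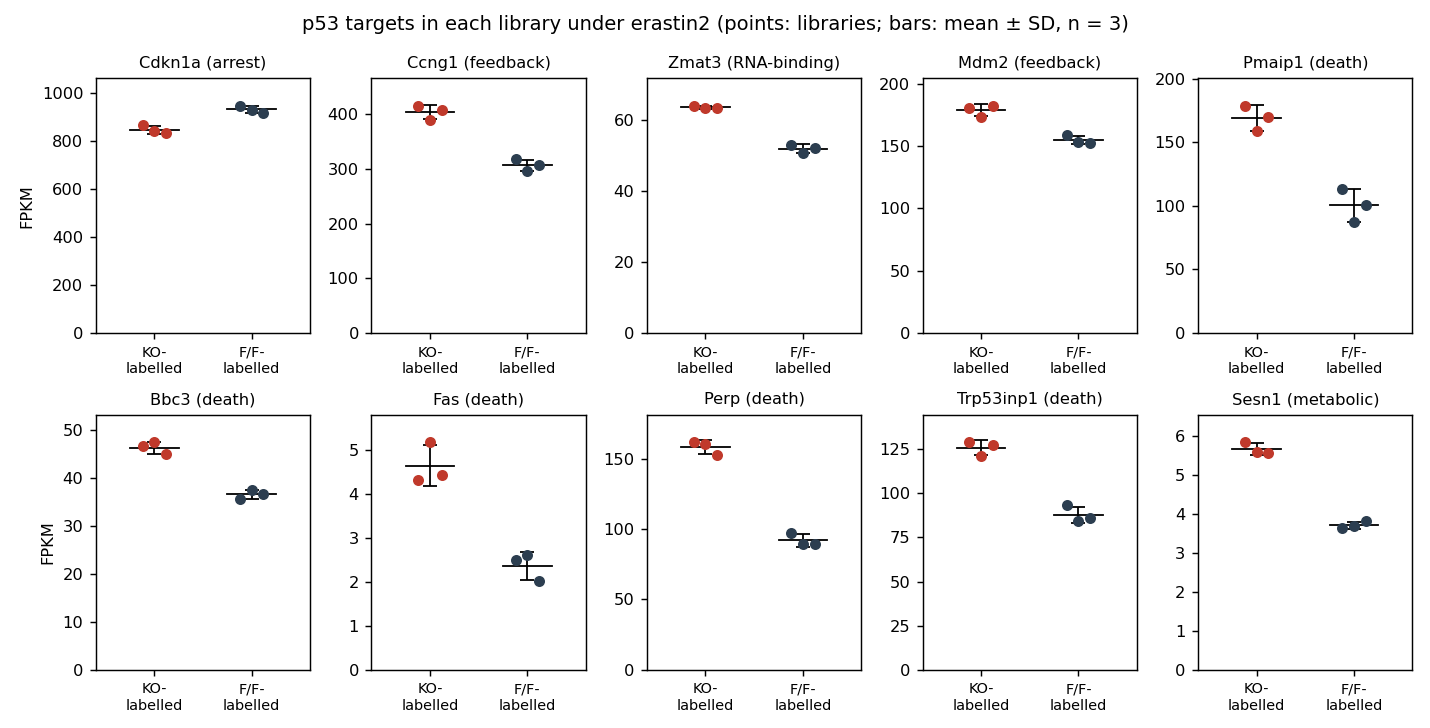
FPKM of the 10 p53 targets (vertical axes, linear and starting at 0) in the 3 KO-labelled libraries (left) and the 3 F/F-labelled libraries (right). Points are libraries and bars are mean ± SD. In 9 panels all KO-labelled points lie above the F/F-labelled ones, and in the Cdkn1a panel they lie below.

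Cdkn1a encodes p21, the inhibitor of cyclin-dependent kinases through which p53 arrests the cell cycle. It had 867.7, 842.9 and 835.5 FPKM in KO-labelled libraries, against 948.8, 932.5 and 918.1 FPKM in F/F-labelled libraries. The groups did not overlap, and the distance between them was small beside the level: the means were 848.7 ± 17 and 933.2 ± 15 FPKM (SD, n = 3 each), a change of -9.05%. The log2 fold change was -0.14 (95% interval -0.25 to -0.02, limma adjusted p = 0.065). The call therefore depended on the method. The authors' deposited table gives Cdkn1a a log2 fold change of -0.17 with an FDR of 3.64e-04. Of 16 other settings, 4 called it lower and none called it higher, and quantile normalization turned its sign (0.15, limma adjusted p = 0.054; range over the settings 0.0034 to 0.24). Even so, p21 message was among the most abundant of the cell, since 0.147% of the genes tested had a higher mean in KO-labelled libraries and 0.173% in F/F-labelled ones. GENCODE places Cdkn1a at chr17:29090976-29100727 (GRCm38, plus strand). In GENCODE, exons of the gene AC167363.2 on the opposite strand cover 7.68% of its 3553 exon bases. The length recovered for Cdkn1a from the FPKM steps was 2026 bases, so the authors counted over another set of exons. Neither that set nor the strand setting of their counting is known here. Whether reads of AC167363.2 entered the Cdkn1a value therefore cannot be told. The other 9 genes share no exon bases with another gene in GENCODE.

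The feedback genes rose. Mdm2 (chr10:117688875-117710758, minus strand) encodes the ligase that marks p53 for destruction. It had 180.5, 173.6 and 182.3 FPKM in KO-labelled libraries, against 158.5, 153.3 and 152.2 FPKM in F/F-labelled libraries. The increase was the smallest of the 9 (log2 fold change 0.21, SE 0.039, limma adjusted p = 0.0035). Ccng1 (chr11:40748552-40755311, minus strand) encodes cyclin G1, which brings a phosphatase to MDM2 and thereby restrains p53. It had 415.9, 390.0 and 407.6 FPKM in KO-labelled libraries, against 317.7, 297.3 and 306.7 FPKM in F/F-labelled libraries, which is 0.40 on the log2 scale (SE 0.047, limma adjusted p = 3.0e-04). Ccng1 was thus the second most abundant of the 10 in both groups, and its groups stood well apart. Trp53, the gene of p53 itself, stood at 63.3, 62.6 and 60.9 FPKM in KO-labelled and 59.8, 54.4 and 58.6 FPKM in F/F-labelled libraries. Its log2 fold change of 0.11 (95% interval 0.01 to 0.21) did not pass the test (limma adjusted p = 0.073). With quantile normalization or with the length trend removed it did (0.13 and 0.16, limma adjusted p = 0.048 and 0.017).

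Of the death genes, Perp had the largest increase of the 10 on the log2(FPKM + 1) scale. By ratio of means Fas came first, at 1.96 against 1.72 for Perp. The authors' deposited log2 fold changes also put Fas first, at 0.94 against 0.75. Perp lies at chr10:18845020-18857073 (plus strand) and encodes a tetraspan membrane protein that takes part in apoptosis and also belongs to the desmosomes that hold epithelial cells together. Perp had 161.7, 160.8 and 152.5 FPKM in KO-labelled libraries, against 97.4, 89.5 and 89.5 FPKM in F/F-labelled libraries. The gap between the groups was several times the spread within them (log2 fold change 0.78, SE 0.046, limma adjusted p = 7.7e-06), and 1.36% of the genes tested had a larger log2 fold change. Among 7 desmosome genes tested, 3 rose (42.9%) and 1 fell (14.3%), against 21.3% and 17.9% of all genes tested. The plakophilin genes Pkp3 and Pkp2 stood at 0.56 and 0.41 on the log2 scale, Jup (plakoglobin) at 0.16 and Dsg2 (desmoglein 2) at -0.28. The Jup call was lost without F/F-labelled replicate 1 or 3 (limma adjusted p = 0.056 and 0.065) or with the length trend removed (0.057), and without KO-labelled replicate 3 the genes called lower were 2.

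Pmaip1 (chr18:66458533-66465565, plus strand) and Bbc3 (chr7:16308393-16318205, plus strand) encode NOXA and PUMA, the BH3-only proteins through which p53 opens the mitochondrial route of apoptosis. Pmaip1 had 178.7, 158.8 and 169.7 FPKM in KO-labelled libraries, against 113.4, 87.0 and 100.7 FPKM in F/F-labelled libraries. Its F/F-labelled values were the more scattered, with a coefficient of variation of 13.2% against 5.88% in KO-labelled ones, and the groups stayed apart (log2 fold change 0.75, SE 0.088, limma adjusted p = 2.7e-04). Bbc3 had 46.7, 47.5 and 45.0 FPKM in KO-labelled libraries, against 35.7, 37.5 and 36.8 FPKM in F/F-labelled libraries. That increase was less than that of Pmaip1 on the log2 scale, at 0.33 (SE 0.038, limma adjusted p = 2.5e-04), and whether the 2 increases differ was not tested. Both proteins act by binding survival members of the BCL2 family.

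Fas (chr19:34290666-34327772, plus strand), the death receptor of the extrinsic route, was the least abundant of the 10. It had 4.34, 5.18 and 4.43 FPKM in KO-labelled libraries, against 2.50, 2.61 and 2.01 FPKM in F/F-labelled libraries, resting on 154, 158 and 139 reads against 135, 73 and 81 reads. Its level was nearly doubled, with a ratio of means of 1.96, and the fold change on the log2 scale was 0.75 (SE 0.093, limma adjusted p = 3.9e-04), a value that the pseudocount of 1 understates. The authors' deposited table, on its own scale, gives 0.94, and with a pseudocount of 0.1 the fold change was 0.95. Downstream of the receptor, 4 of 10 tested genes of the pathway rose (40%) and 2 fell (20%). Among all genes tested 21.3% were called higher and 17.9% lower. The adaptor kinase gene Ripk1 stood at 0.29 and the initiator caspase gene Casp8 at 0.27, while Ripk3, the kinase of necroptosis, stood at -0.66. The ligand gene Fasl stayed under 1 FPKM in all 6 libraries. The second decrease was that of Daxx, named here after its value was seen, and 1 gene was called lower without any one library other than F/F-labelled replicate 2.

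Trp53inp1 (chr4:11156431-11174379, plus strand) encodes a stress protein that promotes the phosphorylation of p53 and takes part in autophagy. It had 128.9, 121.2 and 127.6 FPKM in KO-labelled libraries, against 93.2, 84.5 and 86.3 FPKM in F/F-labelled libraries. The groups were far apart (log2 fold change 0.51, SE 0.047, limma adjusted p = 7.6e-05). Its relative Trp53inp2, which also acts in autophagy, rose by 0.41 on the log2 scale (66.4 ± 0.90 FPKM in KO-labelled and 49.7 ± 1.5 FPKM in F/F-labelled libraries, SD, n = 3 each).

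Sesn1 and Zmat3 act on growth and on RNA. Sesn1 (chr10:41809935-41908424, plus strand) encodes sestrin 1, which restrains the growth kinase complex mTORC1. It had 5.83, 5.57 and 5.56 FPKM in KO-labelled libraries, against 3.63, 3.68 and 3.81 FPKM in F/F-labelled libraries (log2 fold change 0.50, SE 0.057, limma adjusted p = 2.4e-04). The far more abundant Sesn2 was not called (0.11). Zmat3 (chr3:32334792-32366014, minus strand) encodes a zinc finger protein that binds RNA. It had 63.92, 63.18 and 63.28 FPKM in KO-labelled libraries, against 52.97, 50.53 and 52.03 FPKM in F/F-labelled libraries. Its change was modest and its replicates close, with a coefficient of variation of 0.631% in KO-labelled libraries (log2 fold change 0.29, SE 0.035, limma adjusted p = 3.3e-04).

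**Figure D2:**
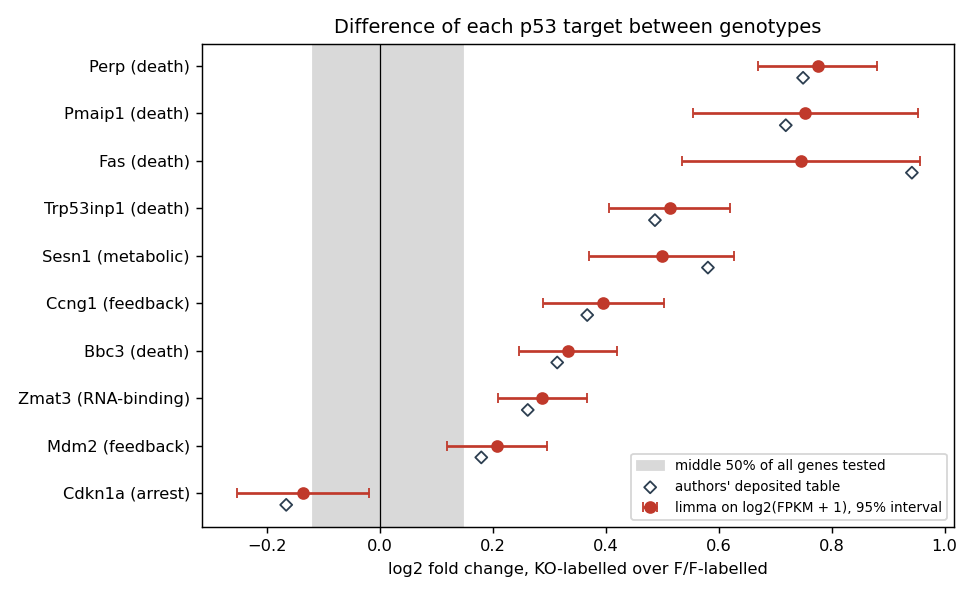
Log2 fold change of each target, KO-labelled over F/F-labelled (horizontal axis), with filled points and 95% intervals from limma on log2(FPKM + 1) and open diamonds from the authors' deposited table. The grey band holds the middle 50% of all genes tested. Perp, Pmaip1 and Fas lie at 0.78, 0.75 and 0.75, and Cdkn1a at -0.14 is the gene below 0.

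Levels per length of gene had the same order in both groups. In KO-labelled libraries the order from the highest mean FPKM was Cdkn1a, Ccng1, Mdm2, Pmaip1, Perp, Trp53inp1, Zmat3, Bbc3, Sesn1 and Fas, and the F/F-labelled order was the same. The ranges of neighbours overlapped for Mdm2 with Pmaip1 and for Pmaip1 with Perp in KO-labelled libraries. In F/F-labelled libraries they overlapped for Pmaip1 with Perp and for Perp with Trp53inp1. All other neighbours in the order were apart. Cdkn1a made up 42.2%, 42.8% and 41.9% of the summed FPKM of the 10 genes in KO-labelled libraries, against 52.0%, 53.6% and 52.5% in F/F-labelled libraries. Without Cdkn1a the sum of the other 9 was 1126 to 1186 FPKM in KO-labelled and 805.9 to 875.0 FPKM in F/F-labelled libraries.

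Set against Cdkn1a in the same library, the other targets thus took a larger share. The ratio of Pmaip1 to Cdkn1a in FPKM was 0.206, 0.188 and 0.203 in KO-labelled libraries, against 0.120, 0.0933 and 0.110 in F/F-labelled libraries. That of Mdm2 to Cdkn1a was 0.211 ± 0.0066 in KO-labelled and 0.166 ± 0.0014 in F/F-labelled libraries (SD, n = 3 each). For both ratios the groups did not overlap, and a two-sided exact permutation test gave its floor, p = 0.1. Every KO-labelled value lay above every F/F-labelled one for Pmaip1 and Mdm2, and below for Cdkn1a. Neither ratio could therefore have come out otherwise, and the test adds nothing to the results of the single genes. The ratio of Mdm2 to Trp53 was 2.87 ± 0.11 in KO-labelled and 2.69 ± 0.12 in F/F-labelled libraries (SD, n = 3 each). There the groups overlapped, with an exact permutation p = 0.2.

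Beyond these 10 genes, 51 further genes, listed as p53 targets from general knowledge, could be tested. Whether p53 acts on each of them in these cells was not tested. Of these, 24 rose, 7 fell and 20 were not called. The share called higher was 47.1% and the share called lower 13.7%, against 21.3% and 17.9% of all genes tested, with a median log2 fold change of 0.17. Over 16 other settings the counts ran from 22 to 26 higher and from 5 to 10 lower. The authors' deposited table, at an FDR under 0.05, has more of these genes lower than the 7. It adds Bax (0.0010), Ptp4a3 (0.027) and the metabolism genes Gpx1 (0.011), Gdf15 (0.0085) and Dcxr (0.014). On the higher side it adds Dgka (0.033). These genes are named after their values were seen. Among all genes tested here that table has 19.2% higher and 22% lower. These lists too were written with results of these data known.

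Arrest genes went both ways. Of 11 tested, 6 rose (54.5%) and 3 fell (27.3%), with a median of 0.26. Sfn, which encodes the arrest protein 14-3-3 sigma, had 37.3 ± 2.7 FPKM in KO-labelled and 22.3 ± 1.2 FPKM in F/F-labelled libraries (0.72 on the log2 scale, SE 0.060, limma adjusted p = 4.9e-05), and Gtse1, a microtubule-associated protein that binds p53, stood at 0.68. By contrast, the polo-like kinase gene Plk3 had 9.75 ± 0.92 FPKM in KO-labelled and 22.2 ± 0.92 FPKM in F/F-labelled libraries (-1.12). Cdkn1c, the p57 relative of p21, fell by 0.87 on the log2 scale, and Cdkn1b, the p27 relative, rose by 0.27. Further death genes had 9 of 14 higher (64.3%) and 1 lower (7.14%), with a median of 0.23. Trp53i11 had the largest change, at 7.83 ± 0.84 FPKM in KO-labelled and 2.97 ± 0.072 FPKM in F/F-labelled libraries (1.15). Pidd1, which encodes the scaffold of the caspase-2 platform, stood at 0.45, Ei24 at 0.43, and the ferrireductase gene Steap3 at -0.50. With voom on recovered reads, the death genes called lower were 2, and the lower gene was not tested with a filter of 5 FPKM.

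DNA repair targets had 5 of 9 higher (55.6%) and 0 lower by limma, with a median of 0.23; 0 were lower also at an unadjusted p under 0.05 and with voom. Xpc, which recognises damage in nucleotide excision repair, stood at 0.32 and the excision nuclease gene Ercc5 at 0.29. Rrm2b, a ribonucleotide reductase subunit, stood at 0.25, and its call was lost without KO-labelled replicate 1 or 3 or F/F-labelled replicate 2 or 3 (limma adjusted p of 0.059 to 0.12). It was lost as well with median-ratio scaling, quantile normalization, no filter, no variance trend and the length trend removed (0.051 to 0.098). The median was 0.16 without F/F-labelled replicate 2. Of 18 targets of metabolism, redox control and secretion, 5 were higher (27.8%) and 3 lower (16.7%), near the 21.3% and 17.9% of all genes tested. Their median was 0.052, and 0.021 without KO-labelled replicate 1. Lpin1, a phosphatidate phosphatase, stood at 0.54, the mTORC1 inhibitor gene Ddit4 at 0.26 and the death receptor gene Tnfrsf10b, which is also on the death list, at 0.23. Sat1, a polyamine acetyltransferase that p53 uses in ferroptosis of other cells, had 160.6 ± 6.3 FPKM in KO-labelled and 196.0 ± 13 FPKM in F/F-labelled libraries (-0.28).

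Of 17 tested genes that set the level or activity of p53, 3 rose (17.6%) and 2 fell (11.8%), near the 21.3% and 17.9% of all genes tested, with a median of 0.053. Ppm1d, the phosphatase that switches p53 signalling off and is itself a target, stood at 0.31. Hipk2, a kinase that phosphorylates p53, stood at -0.32. Trp53bp1 at 0.19 and Rpl5 at -0.15 were called too, but both calls were lost in many settings. Trp53bp1 lost its call without KO-labelled replicate 2 or 3 or F/F-labelled replicate 2 or 3, with no filter and with the length trend removed (limma adjusted p of 0.058 to 0.15). Rpl5 lost its call without KO-labelled replicate 1 or 2 or F/F-labelled replicate 1 or 3, and with quantile normalization, no filter, no variance trend and the length trend removed (0.052 to 0.11). Without KO-labelled replicate 2 or F/F-labelled replicate 3, 1 gene was called higher. The list median was 0.0095 without KO-labelled replicate 2, 0.014 without KO-labelled replicate 3 and 0.020 without F/F-labelled replicate 1.

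Among close relatives of the 10 genes, 6 of 14 rose (42.9%) and 2 fell (14.3%), with a median of 0.12. Of all genes tested, 21.3% were called higher and 17.9% lower. The list is not a separate set of genes. Cdkn1b, Cdkn1c, Bcl2l11, Sesn2 and Tnfrsf10b are also counted among the further p53 targets, and Mdm4 among the genes that set p53. Ccng2, the sister of Ccng1, had 22.01 ± 0.47 FPKM in KO-labelled and 15.52 ± 0.23 FPKM in F/F-labelled libraries (0.48). Tnfrsf1a, named after its value was seen, was the other relative that fell beside Cdkn1c, and 1 relative was called lower without any one library other than F/F-labelled replicate 1.

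Of 26 cell cycle genes that p53 and p21 lower through the DREAM repressor complex, 12 stayed under 1 FPKM in all 6 libraries, among them the proliferation markers Mki67 and Top2a. Of the 10 that could be tested by limma, 1 rose (10%), the replication helicase gene Mcm5, and 0 fell (0%). Among all genes tested 21.3% were called higher and 17.9% lower. At an unadjusted p under 0.05 by limma, and with voom, 0 fell too. The most abundant, the replication clamp gene Pcna, had 30.1 ± 0.59 FPKM in KO-labelled and 30.4 ± 0.42 FPKM in F/F-labelled libraries and was not called. The number called higher was 4 with no filter, 2 with no variance trend, 2 with voom and 0 with quantile normalization. The authors' deposited table, at an FDR under 0.05, has 19.2% of all genes tested here higher and 22% lower. Of this list it has Mcm5 higher (0.0055) and no gene lower. It also has Bub1b (0.0044), Cenpe (2.4e-04), Birc5 (0.010), Plk1 (0.029) and Bub1 (0.045) higher, named after their values were seen. These had means under 1 FPKM in both groups, and the filter left them untested by limma. Mcm5 had 1.35 ± 0.19 FPKM in KO-labelled and 0.908 ± 0.10 FPKM in F/F-labelled libraries (0.30, limma adjusted p = 0.038), and its call was lost without any one library (limma adjusted p of 0.051 to 0.12). The median of the 10 was 0.012, near the 0.018 of all genes tested, against 0.059 without F/F-labelled replicate 2 and -0.011 without F/F-labelled replicate 3. It was -0.0032 with median-ratio scaling and -0.010 with quantile normalization.

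**Figure D3:**
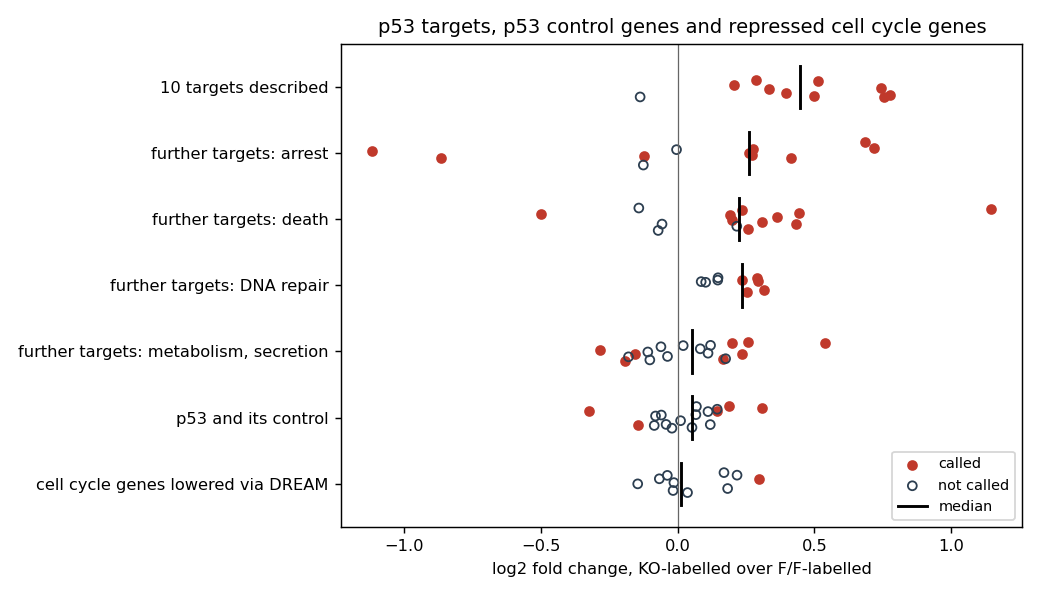
Log2 fold change, KO-labelled over F/F-labelled (horizontal axis), of each tested gene in 7 lists, with filled points called at limma adjusted p under 0.05, open points not called and a vertical bar at the list median. The medians run from 0.45 for the 10 targets to 0.012 for the repressed cell cycle genes.

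The rise of the 9 genes did not hang on a single setting. Each of them was called higher in every alternative that tested it, 16 for each gene except Fas, which a filter of 5 FPKM removed and which was called in 15 of 15. The weakest was Mdm2, with limma adjusted p up to 0.023. The lowest log2 fold change of Pmaip1 was 0.66 and the highest 0.85, both from leaving out a single F/F-labelled library. Gene length was related to how far a library lay above or below the mean of each gene, at Spearman rho of 0.12, 0.04 and 0.34 in KO-labelled and -0.20, -0.16 and -0.23 in F/F-labelled replicates 1 to 3 (across genes, which are not independent). With that trend removed, the fold changes of the 10 genes ran from -0.10 to 0.82.

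**Figure D4:**
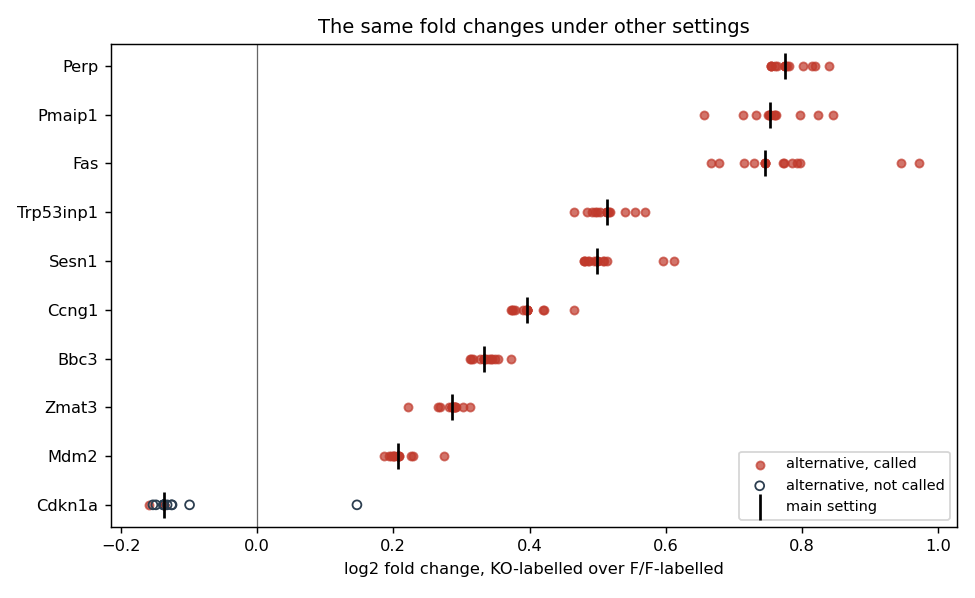
Log2 fold change of each target, KO-labelled over F/F-labelled (horizontal axis), under the main setting (bar) and the alternatives (points, filled where called at limma adjusted p under 0.05). The points of 9 genes are filled throughout and above 0, and those of Cdkn1a include 4 filled points below 0 and 1 open point above 0, from quantile normalization.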

How the data were processed

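The authors deposited a table of FPKM values for 6 libraries, scaled to library size, with a log2 fold change, p-values (a column named as adjusted and an FDR) and a rank score per gene; this log2 fold change runs Atg5KO over Atg5F/F. Per the submitters' processing notes, the tools were edgeR, featureCounts 1.4.6, HISAT2 2.1.0, Trimmomatic 0.35 and bcl2fastq, and the builds named are mm10 and GRCm38. Libraries were stranded and poly(A)-selected, per the labels' protocols; neither annotation nor strand setting is given in the sources used here.

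Whole reads were recovered from FPKM steps for 18296 of 18296 genes above 0, within 2e-04 reads plus a relative 1.5e-09, and recovery was tested on simulated data; voom on these reads called 5062 genes. Tests used limma 3.58.1 in R 4.3.3 on log2(FPKM + 1), with trended eBayes, for genes reaching 1 FPKM in 3 or more libraries, adjusted over all 11559 genes. Fold changes on this scale understate changes of low genes. Correlations between libraries were 0.994 to 0.997 within and 0.978 to 0.984 between groups, and no pair within a group agreed within sampling noise (chi-square per degree of freedom 3.03 to 6.12). Each SD is over 3 libraries. Each SE is that of the limma difference between groups of 3, with the spread moderated across genes. Members and gene lists were chosen with earlier results of these data known. Genes named beside the members were Atg5, Trp53 and, from each list, up to 4 called genes with the largest change, unless said otherwise. Some genes that met this rule are not reported here. Coordinates are from GENCODE vM21, promoters from RefSeq. Alternatives varied the replicate block, the libraries left in, scaling, pseudocount, filter, variance model, voom, length trend and threshold.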

Additional observations from a re-analysis of the deposited data

How the results depend on the processing

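At adjusted p under 0.01, 2678 genes were called, against 4530 at 0.05, and the 9 higher targets stayed called. The count of targets called lower was 1 (Cdkn1a) with median-ratio scaling, robust eBayes, no variance trend and voom on recovered reads, against 0 otherwise; at unadjusted p under 0.05 limma also gave 1. Cdkn1a turned to 0.15 under quantile normalization; the cause was not tested. The median of the targets was 0.40 with a filter of 5 FPKM, which leaves out Fas. List medians moved as follows. That of p53 control genes was 0.032 with median-ratio scaling, 0.032 with no filter, 6.9e-04 with the length trend removed and 0.0095 to 0.055 leaving out a library. That of death genes was 0.25 with a pseudocount of 0.1 and 0.26 with voom. That of repair genes was 0.20 with the length trend removed and 0.16 to 0.26 leaving out a library. That of metabolism genes was 0.095 with quantile normalization, 0.087 with the length trend removed, 0.021 with no filter and 0.021 to 0.076 leaving out a library. That of relatives was 0.10 with median-ratio scaling, 0.14 with a pseudocount of 0.1, 0.19 with a filter of 5 FPKM, 0.14 with voom and 0.11 to 0.15 leaving out a library. That of repressed cell cycle genes was -0.027 with a filter of 5 FPKM, 0.064 with the length trend removed and -0.011 to 0.059 leaving out a library, and that of desmosome genes 0.10 with the length trend removed. Same-numbered replicates deviated together at correlations of 0.163, 0.075 and -0.023, so the numbers were not taken as pairs; a replicate block gave 4668 called genes and left every target on its side of the threshold. Depth limits Fas most, with 73 reads in its shallowest library.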
